A study of Brassica rapa and Brassica oleracea and Brassica napus with 3 samples.

Results

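Homoeologs are genes of the A subgenome (An) and the C subgenome (Cn) of *Brassica napus* that descend from the same ancestral gene and now sit in the same nucleus. DNA methylation was compared here between the members of 1998 such pairs, each with a gene row for its An and its Cn copy in the BS-seq table of the cultivar ZS11. Pairs came from the rows at hand of the study's list of homoeologous tetrads, which names 14748 in all, and both genes were found for all 1998 rows. The An gene was on A01 in 1385 pairs, on A02 in 609 and elsewhere in 4, so the values describe mainly these A chromosomes and their C partners. In all, 1381 pairs joined A01 with C01 and 606 joined A02 with C02. The full table held 44359 An and 52557 Cn gene rows. The study also sampled the diploids *B. rapa* Chiifu and *B. oleracea* JZS, which were not used for these values.

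The *B. napus* sample was young leaf of ZS11 plants aged 14 d, grown hydroponically at 22 °C by day and 18 °C by night, with 16 h of light and 8 h of dark. No mutation or treatment is named for it. It was 1 library, so the same plants, conversion reaction and sequencing run stand behind both members of every pair. There were no replicates, and no test between An and Cn was made. The spread given below is the SD over 20 windows of up to 100 neighbouring pairs. It describes variation along the chromosomes in these leaves, not variation between plants. Whether the leaf was pooled from several plants is not stated, and the files hold no marker of tissue.

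In BS-seq, bisulfite turns unmethylated cytosine into a base read as thymine, while methylated cytosine is still read as cytosine. Plants methylate cytosine in the CG, CHG and CHH contexts, where H is any base but G. CG methylation is copied after replication by MET1, CHG methylation is kept by CMT3 together with histone H3K9 methylation, and CHH methylation is placed by DRM2 through RNA-directed DNA methylation or by CMT2. These roles were established in *Arabidopsis thaliana*. Transposons and other repeats are usually methylated in all contexts, and in the flanks of genes they are often the main methylated sequence. Many moderately expressed plant genes carry CG methylation alone within the gene body, whereas the ends of the transcribed region are usually poor in methylation. The deposited levels are not separated by context, so none of these pathways can be told apart here.

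Every gene has 12 bins, ordered along transcription, of which 4 cover the upstream flank, 4 the gene body and 4 the downstream flank. The level of a bin is its methylated fraction, given here in percent. A region's level averages its measured bins and needs 2 or more of the 4, and differences are Cn minus An in percentage points. A homoeolog is called higher when it exceeded its partner by more than 5 points. Bins without a value were as rare in An (1.52%) as in Cn (1.53%), and 1703 pairs had all 12 bins in both genes. The number of reads behind a bin is unknown, so a bin at 0 cannot be told from a thinly covered one. Bins at exactly 0 made up 32.0% of An and 28.8% of Cn bins with a value. The genes are given by identifier alone, since no name or role was assigned to them here.

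In the upstream flank, the Cn homoeolog was more often the more methylated of the pair. The mean level was 7.17% in An and 9.58% in Cn over 1971 pairs, a difference of 2.41 ± 1.34 points (SD of 20 windows). The medians were 3.36% and 6.47%. The Cn gene was higher in 631 pairs (32.0%) and the An gene in 367 (18.6%), while 973 pairs (49.4%) lay within 5 points. Because every pair with a level was counted, these shares are also the background for any group of pairs. The mean difference was larger than the spread between windows. Differences in both directions partly cancelled in the median of Cn minus An, which was 0.40 points, whereas the median size of the difference, whichever copy was higher, was 5.17 points.

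Downstream flanks had the same order with a smaller difference, and gene bodies showed hardly any. Downstream, the mean was 5.81% in An and 7.37% in Cn over 1963 pairs, a difference of 1.56 ± 1.14 points. The Cn gene was higher in 481 pairs (24.5%) and the An gene in 303 (15.4%), and 1179 pairs (60.1%) lay within 5 points. In the gene body, the mean was 1.74% in An and 1.93% in Cn over 1973 pairs, a difference of 0.19 ± 0.45 points, within the spread between windows. The Cn gene body was higher in 104 pairs (5.27%) and the An gene body in 82 (4.16%), and 90.6% of pairs lay within 5 points. Gene body levels were low in both copies, with 67.6% of pairs under 2% in both, where a difference of 5 points cannot occur.

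These splits depend on the overall level of each subgenome. Over all bins of the paired genes, An had a mean of 4.85% and Cn of 6.28%. With each subgenome divided by its own mean and brought to their common level, the Cn gene was higher upstream in 26.9% of pairs and the An gene in 23.6%. The downstream shares then became nearly equal, at 20.4% and 20.8%, and in the gene body An-higher pairs (5.88%) outnumbered Cn-higher pairs (4.41%). This scaling removes any difference in overall level by construction, so what it leaves is the spread of methylation over the regions. Each statement below that Cn was the higher copy is on the deposited scale.

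**Figure D1:**
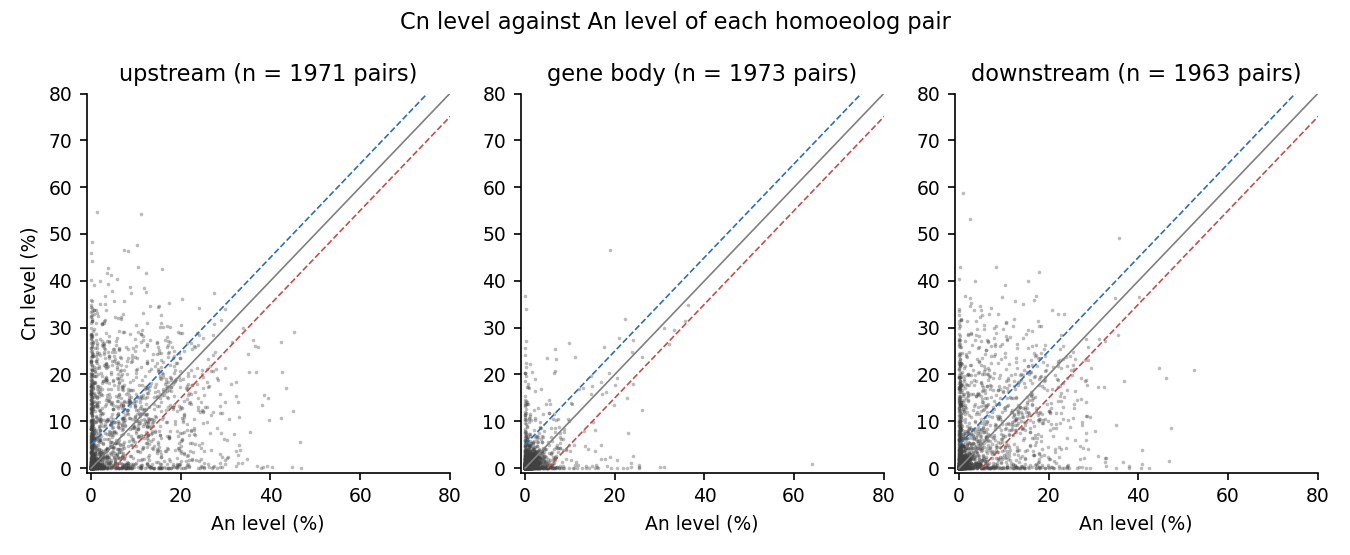
The level of the Cn gene is plotted against the level of the An gene, both in percent, for the upstream flank, the gene body and the downstream flank; each point is 1 pair, the solid line marks equal levels and the dashed lines mark 5 points to either side. Points lie along both axes in the flanks, where 631 pairs are above and 367 below the band upstream, and most gene body points sit near the origin.

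The level of an An flank was only weakly related to the level of the flank of its Cn partner. Across pairs, the correlation of the An and Cn levels was 0.19 upstream (Pearson, n = 1971; Spearman 0.29), 0.44 in the gene body (n = 1973; 0.42) and 0.31 downstream (n = 1963; 0.38). All pairs share the library, so these values are descriptions. An upstream level of at least 20% was found in 203 An and 334 Cn genes of the 1971 pairs, and in both members of 44 pairs. Downstream the counts were 143, 225 and 34 of 1963 pairs. In the gene body, 29 An and 32 Cn genes of 1973 pairs reached 20%, with both copies in 10 pairs. Whether these shared counts exceed what the single counts alone would give was not tested. Flanks that were heavily methylated in 1 copy and almost free of methylation in the other occurred in both directions. Upstream, 100 pairs had Cn at 20% or more with An under 2%, and 45 had the reverse. The counts were 57 and 34 downstream, and 12 and 12 in the gene body.

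Pairs past 5 points looked much alike whichever copy was higher, and the directions differed mainly in number. Upstream, the Cn-higher pairs had a median of 1.97% in the lower and 18.5% in the higher copy, and the An-higher pairs had 2.94% and 18.9%. The median size of the difference was 13.6 points in the former and 12.3 in the latter. Downstream, these sizes were 13 and 11 points, and in the gene body 10.0 and 8.55. Cn-higher pairs thus added 4.93 points to the upstream mean, An-higher pairs took away 2.61, and pairs within 5 points added 0.09. Differences over 20 points were found upstream in 158 pairs with Cn higher and 69 with An higher, downstream in 98 and 47, and in the gene body in 12 and 12. When no threshold was set, Cn exceeded An upstream in 1143 pairs and An exceeded Cn in 811, with 17 pairs equal. In the gene body these counts were 934 and 860, with 179 equal.

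Bin by bin, the difference was widest far from the gene and closed at its start. It was 3.12 ± 1.83 points in the outermost upstream bin, 2.81 ± 2.00 and 2.61 ± 1.55 in the following bins and 1.29 ± 0.94 in the bin beside the start. In the first gene body bin it was −0.02 ± 0.49, with An at 1.34% and Cn at 1.33%, and the Cn mean was the higher in only 8 of 20 windows. It then widened within the gene body to 0.36 ± 0.54 in the last bin, where 14 of 20 windows had the higher Cn mean. Beyond the gene end it was 1.03 ± 1.07 in the first bin, 1.59 ± 1.63 in the second, 1.89 ± 1.40 in the third and 1.84 ± 1.43 in the outermost. The 4 upstream and the 2 outermost downstream differences thus exceeded the spread between windows, and those of the gene body did not. In the flanks, the levels had broadly the same course as the differences. Mean levels in An and Cn fell from 8.33% and 11.4% in the outermost upstream bin to 4.25% and 5.53% beside the start. Downstream they rose from 3.81% and 4.84% beside the gene end to 6.90% and 8.74% in the outermost bin. Whether the difference changed relative to the level was not tested.

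**Figure D2:**
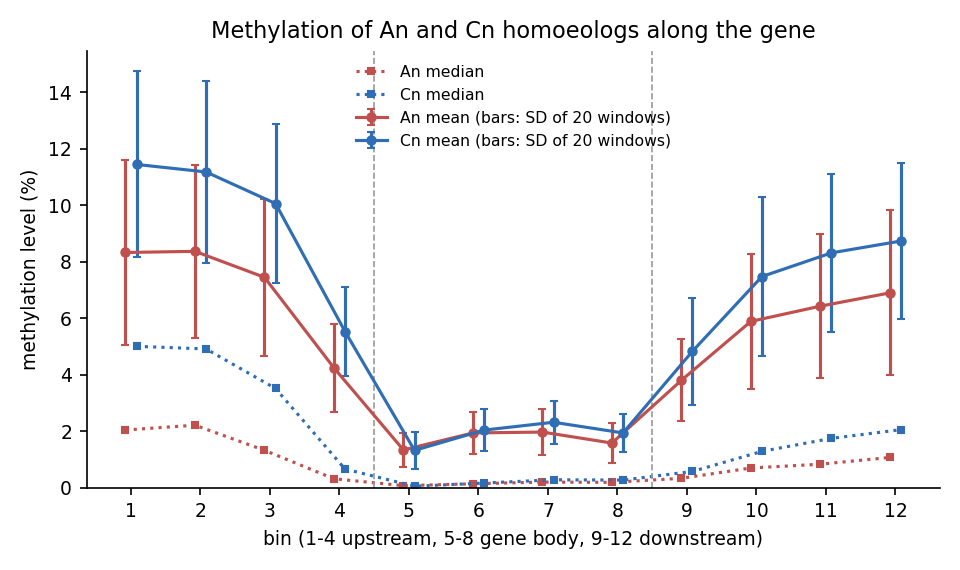
Mean methylation level in percent (solid lines, bars are the SD of 20 windows of neighbouring pairs) and median level (dotted lines) of An and Cn homoeologs are plotted in the 12 bins, with dashed verticals at the gene start and end. The lines separate most in the outermost upstream bin, at 8.33% in An and 11.4% in Cn, and meet in the first gene body bin; the bars overlap because the levels of An and Cn both vary along the chromosomes.

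The number of pairs past 5 points followed the same course, and pairs with low levels in a bin can pass this fixed threshold less often. In the outermost upstream bin, the Cn gene was higher in 33.2% of pairs and the An gene in 20.4%. Beside the gene start the shares were 21.5% and 14.3%. In the first gene body bin they were 4.38% and 4.84%, the only bin in which An-higher pairs were the more numerous. From there the balance moved back to Cn, with 5.87% against 4.12% in the last gene body bin and 18.5% against 13.4% beside the gene end. The outermost downstream bin had 27.0% and 17.2%. Both copies were at exactly 0 in 29.4% of pairs in the first gene body bin, against 6.07% in the outermost upstream bin.

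**Figure D3:**
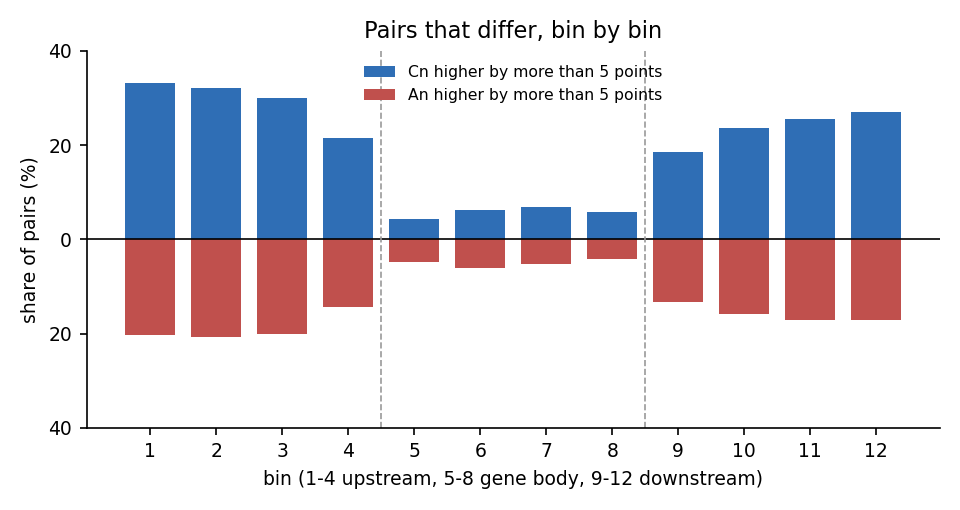
For each of the 12 bins, bars above the zero line give the share of pairs in percent with the Cn gene higher by more than 5 points and bars below it the share with the An gene higher by more than 5 points. Cn-higher pairs run from 33.2% in the outermost upstream bin to 4.38% in the first gene body bin and 27.0% in the outermost downstream bin, and the An-higher bars are the shorter in every bin except that of the first gene body bin.

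The differences of the 3 regions of a pair did not point the same way much more often than not. Where both flanks differed by more than 5 points, they had the same sign in 233 of 407 pairs (57.2%), with 159 pairs Cn-higher in both, 74 An-higher in both and 174 opposite. Upstream flank and gene body had the same sign in 61 of 112 pairs (54.5%), and gene body and downstream flank in 47 of 78 (60.3%). Since Cn-higher pairs were the more numerous in each region, some shared sign follows from that alone. Among pairs past 5 points in both flanks, Cn was higher in 61.2% upstream and 59.7% downstream. These values were 62.5% and 58.0% for upstream flank and gene body, and 60.3% and 56.4% for gene body and downstream flank. Without a threshold the shares with the same sign were 52.8%, 51.3% and 53.6%. Across pairs, the correlation of the differences was −0.00 between the flanks (n = 1945), 0.02 between upstream flank and gene body (n = 1955) and 0.07 between gene body and downstream flank (n = 1945).

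What happened upstream of a gene therefore said little about its downstream side. Among 625 pairs with Cn higher upstream, Cn was also higher downstream in 25.4% and An in 14.4%. Among 961 pairs within 5 points upstream, these shares were 24.3% and 13.9%. Among 359 pairs with An higher upstream, they were 23.4% and 20.6%, so even here Cn was slightly more often the higher copy downstream. The share with An higher downstream was the largest in this last of the 3 groups.

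Most pairs that differed did so on 1 side of the gene alone. Of 1930 pairs with a level in all regions, 552 (28.6%) were within 5 points throughout, 878 (45.5%) were past it in 1 region, 457 in 2 and 43 in all 3. Differences in the upstream flank alone were found in 332 Cn-higher and 176 An-higher pairs, and in the downstream flank alone in 212 and 119. The gene body alone differed in 39 pairs. A gene body within 5 points beside at least 1 flank past it was the state of 1197 pairs (62.0%). Among the 500 pairs past the threshold in 2 or 3 regions, 275 had a single direction, 191 with Cn and 84 with An higher, and 225 were mixed. All 3 regions were Cn-higher in 13 pairs and An-higher in 4. Taking differences of any size, 319 of 1727 pairs had Cn above An in every region, 179 had An above Cn, and 1229 (71.2%) were mixed.

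**Figure D4:**
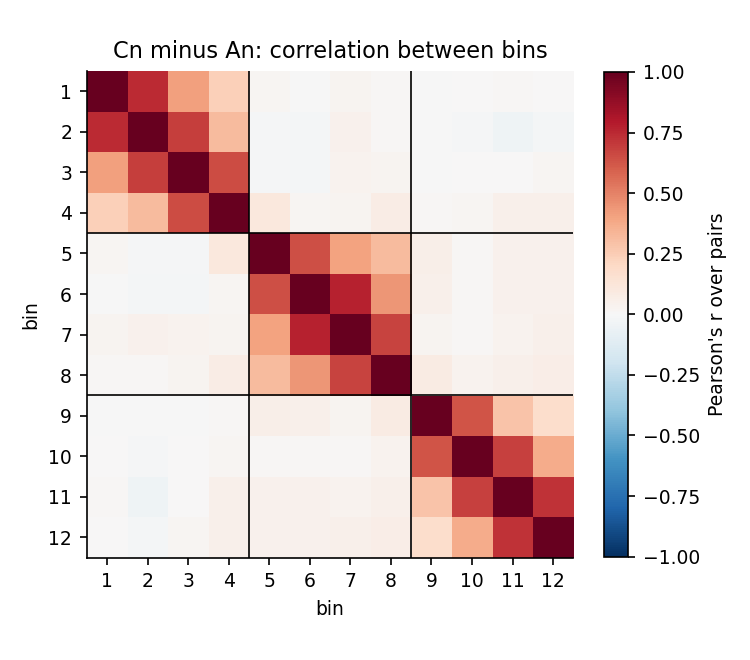
Each cell of the map gives the Pearson correlation across pairs of the Cn minus An difference in 1 bin with that in another, for all 12 bins. Values are 0.63 to 0.77 for neighbouring bins of the same region and −0.04 to 0.11 for bins of different regions, so the 3 regions stand as separate blocks.

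The same separation was seen between single bins. The difference in a bin was correlated with that in the next bin of its region at 0.63 to 0.77, with that 2 bins away at 0.29 to 0.44 and 3 bins away at 0.18 to 0.32. Across the gene start, where the bins are also neighbours, the correlation was 0.11, and across the gene end it was 0.08. Differences between homoeologs were thus alike in neighbouring bins of a flank and little correlated across the edge of the gene. Gene body bins were often near the floor. Both copies were at exactly 0 in 29.4% of pairs in the first gene body bin and in 22.5% in the last. The effect of these zeros on the correlation across the edge was not tested.

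The pairs with the largest upstream difference had a methylated Cn flank beside an An flank near 0 or at a low level. In BnaC01G0177800ZS, the 4 upstream bins were at 44.3%, 100%, 58.2% and 15.9%, whereas in its An partner BnaA01G0139300ZS they were at 0.807%, 0%, 2.26% and 2.01%. This was the largest upstream difference, at 53.3 points, while the gene body was at 0% in both copies. The number of reads behind the bin at 100% is unknown. BnaC01G0178400ZS had 47.3%, 31.7%, 54.2% and 43.4% upstream and BnaA01G0139800ZS 0.144%, 0.207%, 0.0934% and 0.126%. These pairs lie close together on both chromosomes, as their identifiers show. The latter also differed downstream, at 25.9% in Cn and 4.45% in An. BnaC01G0170700ZS had an upstream level of 54.3% against 11.1% in BnaA01G0132800ZS, with gene bodies at 1.13% and 0.932%. In BnaC01G0278200ZS the upstream flank was at 46.5% against 7.26% in BnaA01G0218900ZS, whereas downstream both copies were methylated, at 27.1% and 32.4%.

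Equally complete contrasts were found with An as the methylated copy. BnaA01G0159900ZS had upstream bins at 67.4%, 61.5%, 43.1% and 7.61%, and the partner BnaC01G0204300ZS had 0.276%, 0.286%, 0.308% and 0.302%. In this pair the gene body went the other way, at 0.615% in An and 18.1% in Cn. BnaA01G0318600ZS was methylated on both sides, with a mean of 40.3% upstream and 40.6% downstream, while BnaC01G0393900ZS was at 0.223% and 0.0452%. Its gene body was at 0.110% in An and 0% in Cn, so both flanks differed around a gene body with almost no methylation in either copy. In the pair BnaA01G0106200ZS and BnaC01G0129600ZS, An led upstream with 39.2% against 0.526%, and Cn led downstream with 15.5% against 0.139%. BnaA01G0059100ZS had an upstream level of 37.0% and BnaC01G0070900ZS of 0.402%, and every gene body and downstream bin of both genes was at 0.424% or below.

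Large downstream differences were of the same kind. In BnaC02G0293800ZS the downstream bins were at 59.0%, 68.0%, 61.2% and 46.3%, against 2.33%, 1.52%, 0% and 0% in BnaA02G0218900ZS, and Cn also led upstream with 32.8% against 7.07%. BnaC01G0315800ZS had 53.3% downstream and BnaA01G0257000ZS 2.51%, with similar upstream levels of 16.7% and 12.8%. BnaC01G0046400ZS had 43.0% downstream against 0.178% in BnaA01G0040500ZS, whereas its upstream bins were all at 0% against a mean of 11.2%. With An as the higher copy, BnaA01G0089800ZS reached 89.3% in its outermost downstream bin and a mean of 46.9%, against 1.60% in BnaC01G0109600ZS. BnaA01G0314700ZS had 47.2% against 8.48% in BnaC01G0388900ZS, and BnaA01G0159300ZS 38.0% against 0.0184% in BnaC01G0203500ZS. In both of these pairs the upstream flank had the opposite sign, with Cn higher by 8.69 and 17.8 points.

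The most opposed flanks, 2 pairs in each direction, differed by over 20 points on both sides. In the first, BnaC01G0117600ZS led upstream with 33.8% against 0.585%, and its partner BnaA01G0096400ZS led downstream with 24.2% against 0.407%. All gene body bins of both copies were at 0%. BnaC01G0267300ZS and BnaA01G0212900ZS had 32.4% and 5.38% upstream but 0% and 29.2% downstream. The reverse order was found in BnaA02G0192500ZS and BnaC02G0256000ZS, with 33.5% in An and 1.01% in Cn upstream and 3.59% and 40.05% downstream. BnaA02G0341400ZS and BnaC02G0459300ZS had 30.4% and 2.09% upstream and 1.37% and 36.7% downstream. Each copy of these pairs therefore had a methylated flank, on opposite sides of the gene.

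Some methylated flanks were alike in both copies. In the pair BnaA01G0229800ZS and BnaC01G0294800ZS no bin differed by more than 7.78 points, with upstream levels of 18.5% and 24.0% and downstream levels of 19.2% and 18.9%. The highest upstream bin was the third in both, at 28.1% and 34.2%. In BnaA02G0228200ZS and BnaC02G0307400ZS the flanks were at 11.7% and 12.5% upstream and at 18.1% and 19.5% downstream, with the largest bin difference at 10.2 points. Only 43 pairs had all 12 bins and both flanks over 10% in both copies. Pairs in which no bin differed by over 5 points were more common, at 179 of the pairs with all 12 bins (10.5%).

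The pairs beside the threshold show how small a step it is. BnaC01G0046600ZS exceeded BnaA01G0040700ZS upstream by 5.03 points and was counted as Cn-higher. In this pair An was the higher copy in the outermost bin, at 13.3% against 3.36%, and Cn in the second, at 21.2% against 1.75%. BnaA01G0298600ZS exceeded BnaC01G0367900ZS by 5.09 points and was counted as An-higher. Just outside were BnaC01G0095500ZS, which exceeded BnaA01G0079000ZS by 4.995 points, and BnaA01G0187700ZS, which exceeded BnaC01G0238300ZS by 4.97. A region level can therefore hide bins of opposite sign.

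Gene body methylation differed in few pairs. Those named here had the largest differences among pairs with all 12 bins in both copies. Over all pairs with a gene body level, Cn minus An ran from −63.1 to 36.8 points, so larger An leads than those named occurred. Over all gene bodies past the threshold, the median size of the difference was 10.0 points with Cn higher and 8.55 with An higher. These medians were smaller than those of either flank. BnaC01G0283000ZS, a gene with 1 exon, had gene body bins at 39.8%, 37.6%, 38.5% and 31.2%, and all 4 were at 0% in BnaA01G0222400ZS. Their flanks were similar, at 10.9% and 14.4% upstream and 23.8% and 23.9% downstream. BnaC02G0174800ZS had a gene body level of 27.1% against 0.0945% in BnaA02G0137900ZS, with every flank bin of both at 3.47% or below. BnaC01G0346000ZS had 25.7% against 0% in BnaA01G0282300ZS, and its 2 exons were at 37.1% and 28.2%. BnaC01G0017900ZS had 24.2% against 0.0526% in BnaA01G0015200ZS, and here Cn was also higher upstream, at 20.2% against 0.211%.

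Among the An-higher gene bodies, BnaA01G0021800ZS had bins at 0.234%, 73.0%, 38.5% and 8.94%, against 0.526%, 0%, 0% and 0.158% in BnaC01G0025300ZS. Upstream the order of this pair was reversed, with 14.7% in Cn and 0.0590% in An. BnaA01G0023700ZS had a gene body level of 25.4% against 0.0393% in BnaC01G0027800ZS, and BnaA02G0406100ZS had 25.4% against 0.305% in BnaC02G0539100ZS. BnaA01G0351700ZS, with 1 exon, had 25.4% against 0.710% in BnaC01G0435900ZS, and its upstream flank was at 23.8% against 0% in the partner. Methylation thus covered flank and gene body alike in this An gene, while the Cn copy had a value above 0 in only 1 of its 12 bins.

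The exon rows of the same table allowed gene body values to be set beside those of exons. In BnaA01G0021800ZS all 4 exons were at 0.626% or below, although the gene body reached 73.0% in a bin, so the exon rows did not show this methylation. The 3 exons of BnaC01G0017900ZS were likewise at 0.704% or below, with the gene body at 24.2%. In BnaC02G0174800ZS the middle exon was at 11% and the others at 0%. Over 103 Cn-higher gene bodies with exon levels, the higher copy had a median gene body level of 11.8% and a median exon mean of 3.51%. Over 82 An-higher gene bodies these were 11.6% and 2.32%. The exon mean was also higher by more than 5 points in 39 of the former and 24 of the latter. Over all 1971 pairs with exon levels, it was higher by this much in Cn in 60 (3.04%) and in An in 44 (2.23%). In genes with 1 exon the exon can equal the gene body, as in BnaC01G0283000ZS at 36.8% in both, so such pairs agree by construction. With at least 2 exons in both copies, the exon mean was higher in 21 of 79 Cn-higher and 16 of 69 An-higher pairs. Where both copies had at least 2 exons, every exon of the higher copy was under 5% in 38 of 79 Cn-higher and 32 of 69 An-higher pairs. Exon lengths are not given, so exons were averaged without weights.

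Gene body differences were more frequent where the copies were annotated with unequal exon numbers. In 1561 pairs with equal numbers (78.1%), the Cn gene body was higher in 3.56% and the An gene body in 2.40%. In 437 pairs with unequal numbers these shares were 11.4% and 10.5%. Pairs with unequal numbers also had higher gene body levels, at 3.15% in An and 3.42% in Cn, against 1.35% and 1.52% with equal numbers. A fixed threshold is passed more often at higher levels, and exon number and level were not separated here. The copy with more exons was more often the higher. With more exons in An (199 pairs), An was higher in 31 and Cn in 17, and with more exons in Cn (238 pairs), Cn was higher in 32 and An in 14. Pairs with 1 exon in both (417) had few gene body differences, 1.47% Cn-higher and 1.97% An-higher. Their mean gene body levels were also low, at 0.894% in An and 0.878% in Cn. Upstream, pairs with 10 or more exons in both (204) had the Cn gene higher in 36.3% and the An gene in 13.4%. These shares were 30.6% and 20.8% with 1 exon in both, and 31.0% and 18.7% with 2 to 9. With more exons in Cn they were 39.8% and 15.7%, and with more in An 32.0% and 24.9%.

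The upstream difference also moved with the annotated untranslated regions, from whose outer edge the bins start. Where only the An gene had an annotated 5′ UTR (100 pairs), each copy was higher upstream in 22.2% of pairs and the mean difference was 0.40 points. Where only the Cn gene had one (129 pairs), Cn was higher in 38.3% and An in 12.5%, with a mean difference of 4.01. Pairs with a 5′ UTR in both (251) had 29.6% and 19.8%, and pairs with none in either (1518) had 32.5% and 18.7%. Cn-higher pairs thus outnumbered An-higher pairs without unequal annotation too, and whether annotated gene ends differ within a pair was not tested.

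Along the chromosomes, both copies followed the same broad course. In windows of up to 100 pairs in the order of the An genes, the upstream mean was highest in the ninth window of A01, at 11% in An and 13.2% in Cn, and in the fifth of A02, at 12.2% and 13.6%. At the start of A01 it was 2.87% and 4.68%. The Cn mean was the higher in 19 of 20 windows upstream, in 14 in the gene body and in 19 downstream. The widest upstream difference was 5.76 points, in the sixth window of A01, with 5.68% in An and 11.4% in Cn. The widest downstream difference was 5.09, in the fourth window of A02. The exception to the Cn lead in the flanks was the last window of A01 (85 pairs), which had differences of −0.09 upstream, −0.73 in the gene body and −0.40 downstream.

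**Figure D5:**
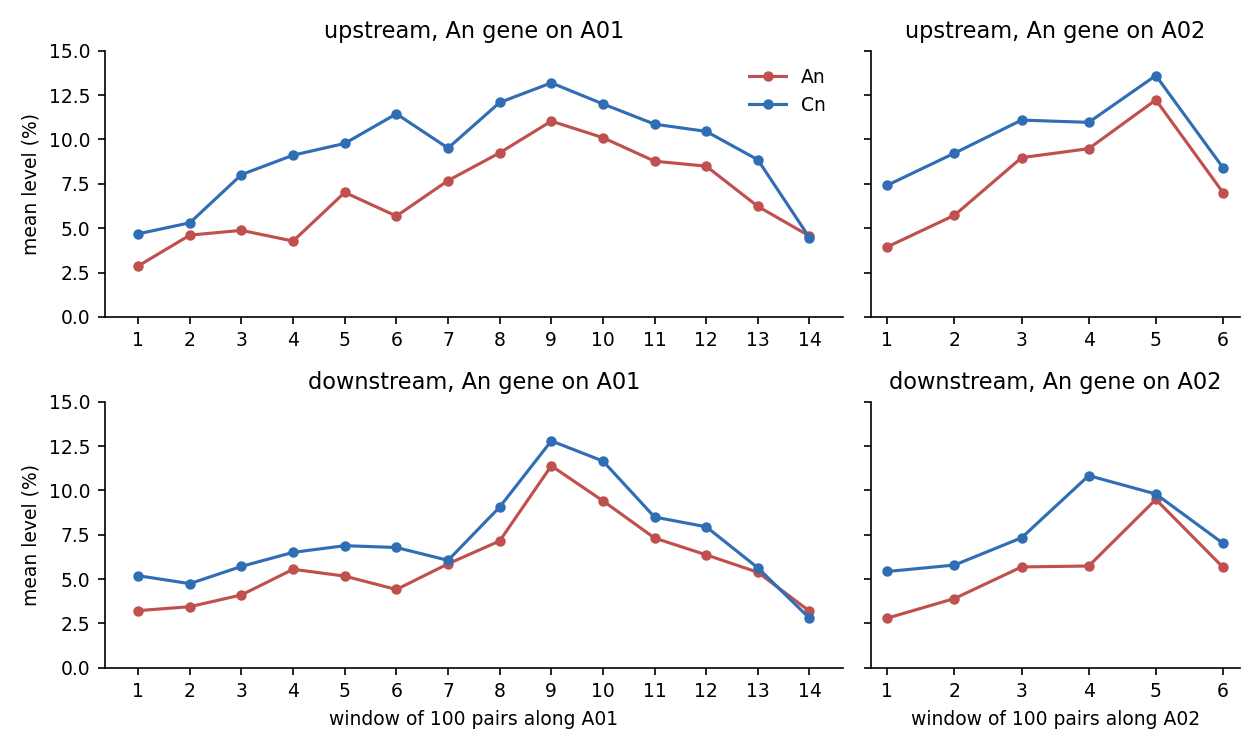
Mean level in percent of An and Cn homoeologs is plotted for windows of up to 100 pairs in the order of the An genes on A01 (14 windows) and A02 (6 windows), upstream in the upper and downstream in the lower panels. Upstream, both lines peak in the ninth window on A01, at 11% in An and 13.2% in Cn, and in the fifth on A02, at 12.2% and 13.6%, and Cn lies above An except in the last window of A01.

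Both chromosome pairs had more Cn-higher than An-higher pairs in every region. Upstream the shares were 31.6% and 17.8% for An genes on A01, and 33.3% and 20.5% on A02. Downstream they were 24.0% and 16.2%, and 25.6% and 13.6%. In the gene body, Cn-higher pairs were more frequent on A02 (7.62%) than on A01 (4.18%), and An-higher pairs had 4.80% and 3.88%. Adjoining pairs resembled each other little. Over pairs whose genes were neighbours on both chromosomes, the differences had the same sign in 60 of 107 cases past 5 points upstream and in 44 of 78 downstream, and their correlation was 0.17 (n = 436) and 0.08 (n = 433).

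Homoeologs in pairs had lower gene body levels than other genes of their chromosomes. The mean gene body level was 1.55% in paired and 4.36% in other genes of A01, 2.12% and 3.97% on A02, 1.70% and 6.24% on C01, and 2.43% and 6.52% on C02. Gene bodies at or above 20% made up 0.873% of paired and 7.44% of other genes on A01, and in 1.31% and 11.9% on C01. Genes in pairs of the rows not at hand count among the others here. The C01 mean thus lay close to the A01 mean in paired genes and well above it in the others. In the upstream flank, paired genes had 6.83% on A01 and 9.32% on C01, against 8.93% and 11.4% in the other genes, so there the C01 genes had the higher mean in both sets.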

How the data were processed

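The data are from 1 BS-seq library of *B. napus* ZS11 young leaves. According to the methods, the authors extracted genomic DNA, whereas the protocol in the labels describes RNA extraction for this sample. The authors filtered reads with Fastp, mapped them to the ZS11 genome with BatMeth2 and deposited the methylated fraction (0 to 1) in 12 bins of each annotated feature. Context, bin width, coverage minimum and conversion rate are not given in the sources used here, and the depth is unknown.

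Fractions were converted to percent. Levels, differences and shares were calculated with Python 3.11.15, numpy 2.4.6, pandas 2.3.3 and scipy 1.17.1, figures were drawn with matplotlib 3.10.9, and the steps were tested on simulated data. Bin order was checked on untranslated region rows, whose upstream flank equalled that of the gene in 608 of 609 genes. Windows held 100 pairs, with at least 50 required.

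The pairs came from a shortened copy of the tetrad table, so no overlap or enrichment was tested. The members, lists and comparisons were chosen with earlier results of these data known. The exon values, neighbouring pairs, other genes and bin correlations were added after first values were seen. Named pairs had all 12 bins in both genes. They were the 4 largest differences in each direction and region, the 2 most opposed flanks in each direction, the 2 most alike pairs with flanks over 10%, and those beside the threshold upstream. Alternatives changed the bins required, the threshold, zeros, mean or median, scaling, and the pairs used.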

Additional observations from a re-analysis of the deposited data

How the results depend on the processing

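The order of the copies held under most alternatives, while the size of each share followed the threshold. Of 126 values under alternatives, 92 stayed within the yardstick, 32 moved beyond it and 2 changed sign. The yardstick, chosen after first values were seen, was the 95% Wilson interval over pairs for shares, which covers counting of pairs only, and the SD of window differences for means. Several alternatives kept nearly all pairs, such as 1960 of 1971 upstream for chromosomes of the same number, so their values could hardly move. A lower or higher threshold raises or lowers a share by construction. The tally is therefore a description only. Cn-higher pairs outnumbered An-higher pairs in 11 of 11 alternatives upstream and in 10 of 11 in the gene body and downstream, the exception being own-mean scaling in both.

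With a threshold of 2 points, Cn-higher and An-higher shares were 41.9% and 26.3% upstream, 12.2% and 9.63% in the gene body, and 34.0% and 23.6% downstream. With 10 points they were 21.1% and 11.4%, 2.74% and 1.82%, and 15.6% and 8.51%. With bins at exactly 0 treated as missing they were 34.4% and 21.6%, 7.41% and 5.25%, and 28.3% and 17.9%. With each subgenome divided by its own mean, they were 26.9% and 23.6% upstream, 4.41% and 5.88% in the gene body, and 20.4% and 20.8% downstream. The mean difference was then 0.26 points for the upstream flank, −0.28 for the gene body and −0.14 downstream, so the last 2 changed sign. This scaling equalises the subgenomes by construction. The median difference was 0.40 upstream and 0.15 downstream.

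For An genes on A02, An was higher upstream in 20.5% and downstream in 13.6% of pairs, and Cn gene bodies in 7.62%, against 4.18% on A01. With equal exon numbers, gene body shares were 3.56% and 2.40%. Restricting the pairs to those with a 5′ UTR in both or neither copy was chosen after the data were seen and moved no value beyond the yardstick. With 1 library there are no replicates, so no result was tested across samples. Without read counts, neither a coverage minimum nor the error of a bin could be assessed.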
